A study of Mus musculus with 12 samples.

Results

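The genes of DNA replication and mitosis were examined in whole brains of newborn mice, as the transcripts that dividing cells need. The members were the probes whose gene symbol in the array's annotation was one of 58 listed names. They came to 115 of the 45281 probes and 55 of the 22491 genes with a symbol. *Ccnb1* and *Nuf2* were not analysed here, since no probe carries that symbol in the annotation used, and the name Geminin is the protein of the member *Gmnn*. Of the 55 genes, 21 had 1 probe, 15 had 2, 13 had 3, 5 had 4 and *Tyms* had 5. The brains were taken at postnatal day 1 (P1) from 4 groups of 3 mice. The groups were homozygous *nm1054* and WT mice on the 129S6/SvEvTac (129) background, and homozygous *nm1054* and WT mice on the C57BL6/J (B6) background. The *nm1054* mutation is a spontaneous deletion on chromosome 1 that takes out *Cfap221*, *Dbi*, *Sctr*, *Steap3*, *Tmem37* and a further gene, and homozygous mutants have dysfunctional motile cilia and a hydrocephalus that is worse on B6. The *nm1054* B6 mice also carried a bacterial artificial chromosome with *Steap3*, given against a lethal anemia, so that every comparison with these mice includes the transgene. Males and females were mixed in each group. RNA of each brain was hybridized to 1 single-colour Illumina array, and a value is the log2 intensity of a probe relative to its median over the 12 arrays. Such values carry no level, so genes cannot be ranked against each other and the presence of brain markers could not be checked.

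A cell that is going to divide first licenses its replication origins. The origin recognition complex, Cdc6 and Cdt1 load the MCM helicase in G1, and cyclin-dependent kinases then fire the origins in S phase, when the GINS complex and Cdc45 turn MCM into a running helicase. Aurora kinases, the spindle checkpoint and the kinetochore later part the copied chromosomes, and transcription factors of the E2F, B-Myb and FoxM1 type drive the successive rise of S phase genes and mitotic genes in each cycle. In the brain at birth most neurons have left the cycle, and the dividing cells are found in the germinal zones around the ventricles, in the external layer of the cerebellum and among glial progenitors. In whole-brain RNA, fewer dividing cells and less of a transcript per cell cannot be told apart.

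The arrays differed in their overall position, and the members moved with it. Over all probes the array median was lowest in WT B6 replicate 1 (-0.17) and highest in WT 129 replicate 1 (0.11). Over the member probes the medians spanned -0.25 to 0.11. The member medians were 0.049, 0.068 and -0.0048 in *nm1054* 129 brains, 0.11, 0.11 and 0.040 in WT 129 brains, -0.11, -0.15 and -0.052 in *nm1054* B6 brains and -0.25, 0.00023 and -0.013 in WT B6 brains. By group they averaged 0.037 ± 0.038 in *nm1054* 129, 0.087 ± 0.041 in WT 129, -0.11 ± 0.051 in *nm1054* B6 and -0.089 ± 0.14 in WT B6 brains (SD, n = 3 each). All 6 of the 129 medians lay above the 3 *nm1054* B6 medians, but *nm1054* 129 replicate 3 lay below WT B6 replicate 2. WT B6 replicate 1 stood apart, as the lowest array at 45 of the 115 member probes (39.1%, against 34.4% of all probes). Once each array was set to 0 at its own median over all probes, it was the lowest at 25 member probes (21.7%, against 16.6%). The member median minus the all-probe median lay between -0.080 (WT B6 replicate 1) and 0.044 (WT 129 replicate 2), at a mean of 0.012 ± 0.024 in *nm1054* 129, 0.019 ± 0.025 in WT 129, -0.034 ± 0.025 in *nm1054* B6 and -0.027 ± 0.052 in WT B6 brains. Of the WT B6 brains, replicate 1 alone had all 4 probes of the female-specific transcript *Xist* above 0, which held for 1 brain in *nm1054* 129, 2 in WT 129, 2 in *nm1054* B6 and 1 in WT B6. The part of sex in the member values was not tested. The deleted gene *Dbi* read -3.70 in *nm1054* 129 brains and 3.45 in WT 129 brains at its probe ILMN_1215469, and -3.70 in *nm1054* B6 brains and 3.58 in WT B6 brains (group means), and was thus low in both *nm1054* groups.

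**Figure D1:**
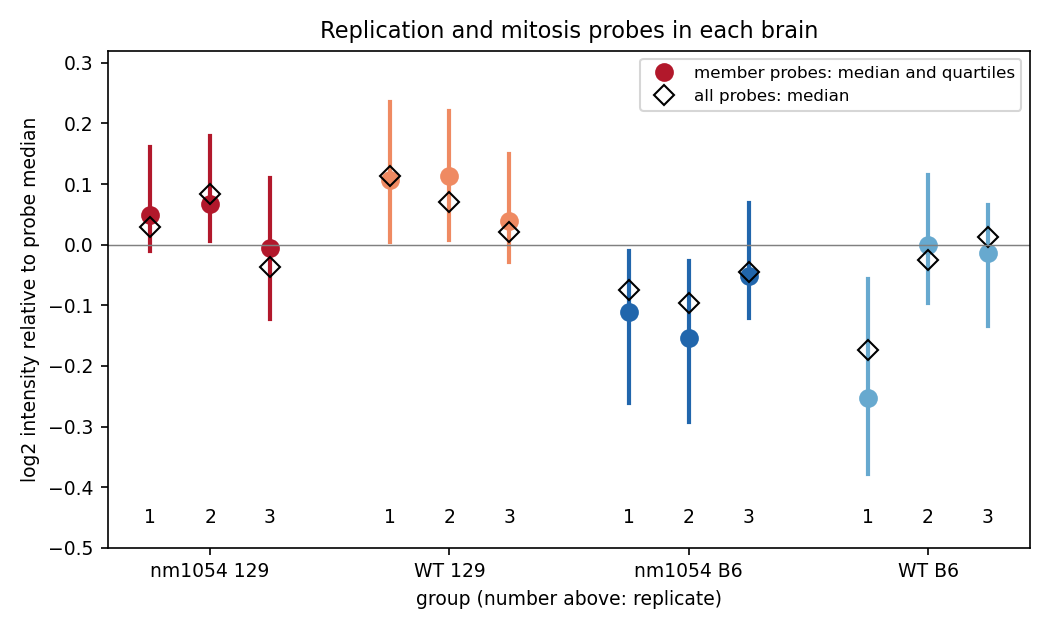
The median (filled circles) and quartiles (bars) of the 115 member probes in each of the 12 brains, with the median of all 45281 probes (open diamonds), as log2 intensity relative to each probe's median over the arrays. The member medians lay from -0.080 to 0.044 away from the diamonds, and WT B6 replicate 1 was the lowest on both.

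Few member probes differed between the strains by the study's criteria, a fold change over 1.5 with an adjusted p under 0.05, here from limma over all probes. Comparing *nm1054* 129 with *nm1054* B6 brains, 2 of 115 member probes were called (1.74%), against 3.27% of all probes. Both were of *Birc5* and higher in 129 (1.39% of all probes were called higher), and none was called lower (1.88%). Comparing WT 129 with WT B6 brains, 2 member probes were called, against 3.33% of all probes. A probe of *Birc5* was higher in 129 (1.67% of all probes) and a probe of *Rrm1* was lower (1.66%). At an unadjusted p under 0.05, 37 member probes passed in *nm1054* brains (32.2%, against 22.2% of all probes) and 36 in WT brains (31.3%, against 26.7%). At an adjusted p under 0.05 and any fold, 9 member probes were higher in 129 in *nm1054* brains (7.83%, against 3.79% of all) and 3 were lower (2.61%, against 2.64%). In WT brains 10 were higher in 129 (8.7%, against 5.34%) and 2 were lower (1.74%, against 2.45%). Probes of *Birc5* (2 probes), *Cenpf*, *Tk1*, *Bub1b* and *Rrm1* passed with the same sign in both strain comparisons, 6 of 115 against 3.85% of all probes. The last of these counts, and those below of groups that do not overlap, were chosen after the data were seen.

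The members' median strain differences lay somewhat above those of the whole array. The median difference, 129 minus B6, was 0.18 over the member probes and 0.12 over all probes in *nm1054* brains, and 0.20 and 0.15 in WT brains. With each array centred on its median, which takes 0.097 off every strain difference in *nm1054* brains and 0.13 in WT brains, the member medians came to 0.080 in *nm1054* and 0.070 in WT brains, beside 0.025 and 0.021 over all probes. In *nm1054* brains 36 member probes had all 3 of their 129 values above all 3 B6 values (23.2% of all probes) and 4 had them all below (6.07%). The counts in WT brains were 37 (23.8%) and 4 (5.59%). After centring there were 22 above (12.5% of all probes) and 12 below (10.6%) in *nm1054* brains, and 20 (11.8%) and 7 (11.5%) in WT brains. Centring also took the members higher at an adjusted p under 0.05 down to 3 in *nm1054* and 2 in WT brains (2.16% of all probes each), with 3 lower in each (4.06% and 3.93%). The strain differences below are as deposited, and are read against the all-probe medians of 0.12 in *nm1054* and 0.15 in WT brains. Probe sequences were not among the sources used, so no probe was checked against sequence variants between the strains. The part of such variants in a strain difference was not tested.

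**Figure D2:**
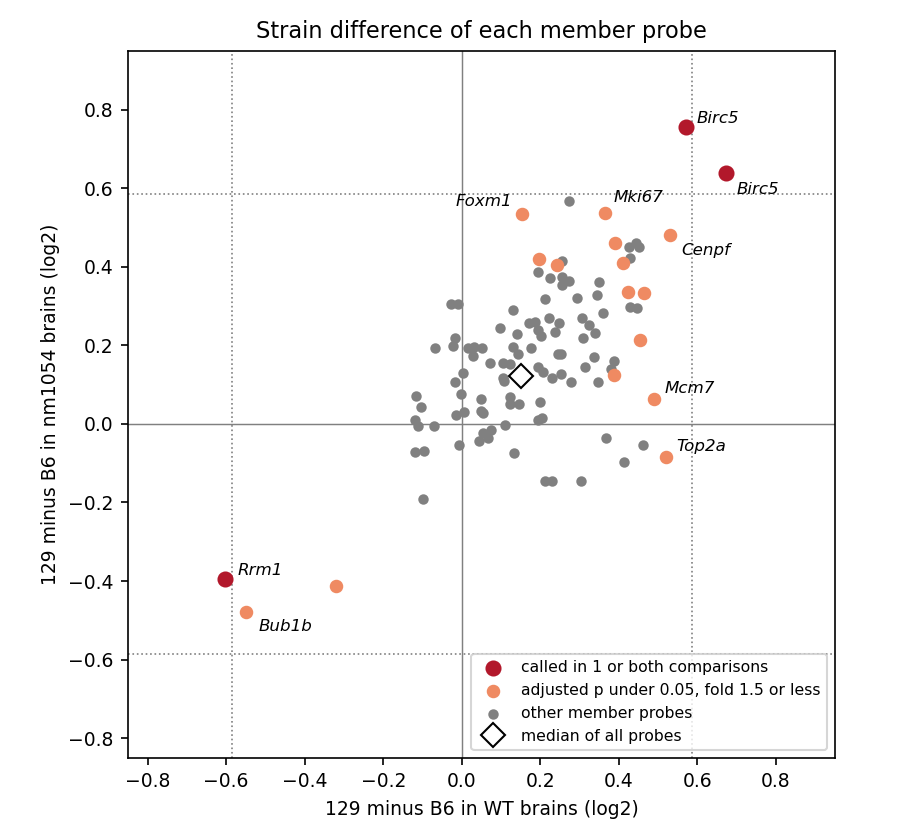
The difference 129 minus B6 (log2) of each of the 115 member probes in *nm1054* brains (y axis) and in WT brains (x axis), with dotted lines at a fold of 1.5 and the median of all probes as an open diamond. The called probes of *Birc5* lie at the upper right and that of *Rrm1* at the lower left, and most other members lie around the diamond.

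*Birc5* encodes survivin, a subunit of the chromosomal passenger complex that guides Aurora B through mitosis. Its probe ILMN_2681241 read 0.31, 0.18 and 0.40 in *nm1054* 129, 0.24, 0.41 and 0.36 in WT 129, -0.42, -0.43 and -0.18 in *nm1054* B6 and -0.39, -0.44 and -0.18 in WT B6 brains. The lowest 129 value lay above the highest B6 value in both genotypes. The group means were 0.30 ± 0.11 in *nm1054* 129 and -0.34 ± 0.14 in *nm1054* B6 brains, and 0.34 ± 0.086 in WT 129 and -0.34 ± 0.14 in WT B6 brains (SD, n = 3 each). The differences were 0.64 (SE 0.12, limma adjusted p = 0.00149) in *nm1054* brains and 0.67 (SE 0.12, limma adjusted p = 0.000867) in WT brains. The probe ILMN_2603699 read 0.15, 0.22 and 0.25 in *nm1054* 129, 0.12, 0.23 and 0.20 in WT 129, -0.74, -0.79 and -0.12 in *nm1054* B6 and -0.41, -0.47 and -0.28 in WT B6 brains. Again the strains did not overlap, and *nm1054* B6 replicate 3 lay nearest to the 129 brains. Its difference was 0.76 (SE 0.14, limma adjusted p = 0.00196) in *nm1054* brains, or 1.69-fold, and 0.57 (SE 0.14, limma adjusted p = 0.019) in WT brains. A further probe of the gene, ILMN_2632712, differed by 0.45 in *nm1054* brains and 0.45 in WT brains and was not called. Between genotypes the 3 probes of *Birc5* differed by -0.16 to 0.06, with no call. With the arrays centred, ILMN_2681241 differed by 0.54 in each genotype and passed no longer, since its fold fell under 1.5, while ILMN_2603699 kept its call in *nm1054* brains at 0.66.

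*Rrm1* encodes the large subunit of ribonucleotide reductase, which makes the deoxyribonucleotides of DNA. Its probe ILMN_1258715 read -0.29, -0.12 and -0.14 in *nm1054* 129, -0.18, -0.15 and -0.22 in WT 129, 0.26, 0.12 and 0.26 in *nm1054* B6 and 0.47, 0.53 and 0.27 in WT B6 brains. All 6 values of 129 brains were below 0 and all 6 of B6 brains above it. The difference was -0.40 (SE 0.11, limma adjusted p = 0.0377) in *nm1054* brains, where the fold was under 1.5, and -0.60 (SE 0.11, limma adjusted p = 0.00141) in WT brains, called lower in 129. The other probes differed by less. ILMN_2977624 read -0.01, 0.06 and 0.22 in *nm1054* 129, -0.10, -0.17 and -0.15 in WT 129, 0.12, -0.07 and 0.01 in *nm1054* B6 and 0.13, 0.03 and -0.24 in WT B6 brains, and its strain differences were 0.07 in *nm1054* brains and -0.12 in WT brains. At ILMN_1221606 they were -0.19 and -0.10. The call in WT brains was lost without WT B6 replicate 1, WT B6 replicate 2 or WT 129 replicate 3, each left out in turn. With each gene taken once, as the mean of its probes, 1 of the 55 members was called in *nm1054* brains (*Birc5*, against 2.8% of all genes) and 0 in WT brains (2.79%).

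**Figure D3:**
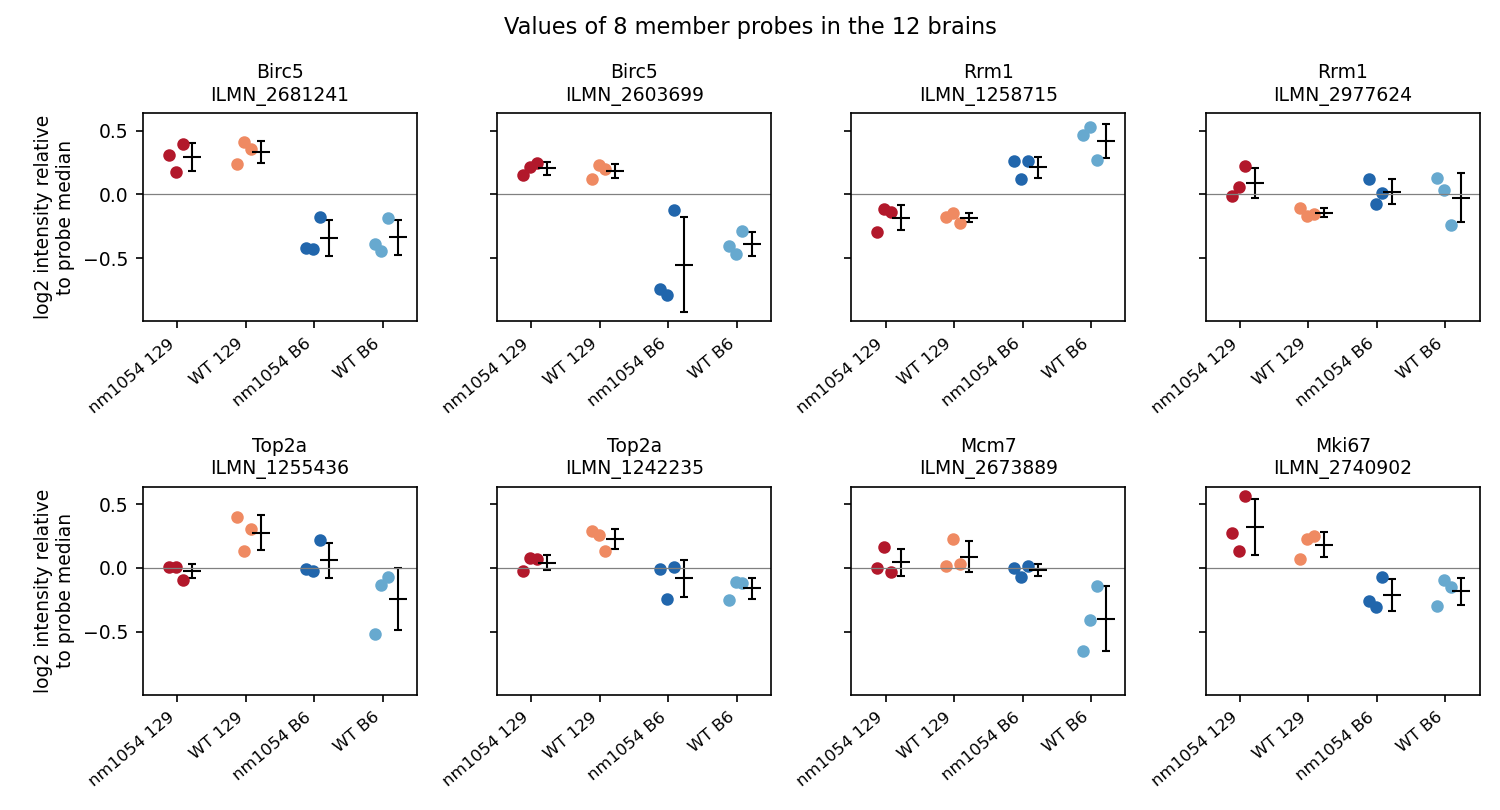
Log2 intensity relative to the probe median of 8 member probes in the 12 brains (circles), with the mean and SD of each group (black, n = 3). At both *Birc5* probes the 129 values lay above the B6 values in either genotype, at 1 of the 2 *Rrm1* probes shown they lay below, and *Top2a* ILMN_1255436 and *Mcm7* had low WT B6 values.

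The 250 bases upstream of the start of *Birc5*, *Rrm1* and *Top2a* are shown because the first pair of genes held the called probes and the last held the probe whose genotype difference turned most between strains. Capitals mark the pentamer CCAAT and the hexamer TTTGAA on either strand, the CCAAT box and the cell cycle homology region known from promoters of mitotic genes. All 3 are RefSeq sequences of GRCm38.p6, read in the direction of the gene, from chr11:117848987-117849236 on the plus strand, chr7:102441445-102441694 on the plus strand and chr11:99024190-99024439 on the minus strand.
Birc5: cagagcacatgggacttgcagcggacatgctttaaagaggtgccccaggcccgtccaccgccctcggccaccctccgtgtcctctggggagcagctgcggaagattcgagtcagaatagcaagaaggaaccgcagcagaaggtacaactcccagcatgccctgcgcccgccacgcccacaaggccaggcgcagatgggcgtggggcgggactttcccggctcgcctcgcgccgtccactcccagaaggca
Rrm1: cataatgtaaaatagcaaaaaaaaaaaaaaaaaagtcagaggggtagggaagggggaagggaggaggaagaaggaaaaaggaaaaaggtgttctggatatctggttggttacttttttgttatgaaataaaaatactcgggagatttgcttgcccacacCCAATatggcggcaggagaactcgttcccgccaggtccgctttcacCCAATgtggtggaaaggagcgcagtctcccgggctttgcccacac
Top2a: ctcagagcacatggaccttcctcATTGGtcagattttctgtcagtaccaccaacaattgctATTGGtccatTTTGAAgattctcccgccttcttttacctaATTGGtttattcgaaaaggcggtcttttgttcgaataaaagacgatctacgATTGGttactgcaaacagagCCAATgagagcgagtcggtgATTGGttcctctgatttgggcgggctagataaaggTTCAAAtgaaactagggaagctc
The *Top2a* window held 6 CCAAT boxes and 2 TTTGAA hexamers, the *Rrm1* window 2 CCAAT boxes, and the *Birc5* window neither motif. Of the members, 44 genes matched the promoter table, with 46 promoters. CCAAT stood in 32 of these (69.6%), against 33.8% of 32851 promoters of the same length, TTTGAA in 8 (17.4%, against 16%), and an E2F site, TTTCCCGC or TTTGGCGC on either strand, in 5 (10.9%, against 1.3%). A match describes the letters and is no measured site.

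Origin licensing and the helicase were read by 24 probes of 14 genes, and none of them was called in any comparison. Between strains the median difference was 0.21 in *nm1054* brains (-0.01 to 0.57) and 0.18 in WT brains (-0.12 to 0.49), and 0.12 and 0.05 with the arrays centred. *Gins2*, a subunit of the GINS complex, had the smallest p of these in WT brains. Its probe ILMN_1246270 read 0.22, 0.05 and 0.23 in *nm1054* 129, 0.22, 0.26 and 0.29 in WT 129, -0.23, -0.16 and -0.11 in *nm1054* B6 and -0.24, -0.22 and -0.05 in WT B6 brains. The strains did not overlap in either genotype, and the differences were 0.33 (SE 0.11, limma adjusted p = 0.0729) in *nm1054* brains and 0.42 (SE 0.11, limma adjusted p = 0.0197) in WT brains, both under 1.5-fold. *Mcm2*, a subunit of the MCM2-7 helicase and a common marker of licensed cells, read 0.16, 0.18 and 0.16 in *nm1054* 129, -0.02, 0.20 and 0.21 in WT 129, -0.05, -0.42 and -0.20 in *nm1054* B6 and -0.05, 0.02 and -0.16 in WT B6 brains at ILMN_1250907. The *nm1054* brains of the 2 strains did not overlap there and the WT brains did, with differences of 0.39 (SE 0.12, limma adjusted p = 0.0588) in *nm1054* and 0.20 (SE 0.12, limma adjusted p = 0.291) in WT brains. A probe of the helicase subunit *Mcm7*, ILMN_2673889, read -0.0022, 0.17 and -0.03 in *nm1054* 129, 0.01, 0.23 and 0.03 in WT 129, 0.0022, -0.07 and 0.02 in *nm1054* B6 and -0.65, -0.41 and -0.14 in WT B6 brains. The 3 WT B6 brains were the lowest of all 12, and the strain difference was 0.06 in *nm1054* but 0.49 (SE 0.13, limma adjusted p = 0.0234) in WT brains. The second *Mcm7* probe differed by -0.02 in WT brains. Of the other genes, *Gins1* gave the highest difference in *nm1054* brains, at 0.57, with 0.27 in WT brains. *Mcm3* of the helicase differed by 0.42 in *nm1054* and 0.25 in WT brains. A probe of the loader *Cdc6* gave the lowest difference in WT brains, at -0.12. *Mcm4* and *Mcm5* of the helicase, *Orc1* and *Orc6* of the origin recognition complex and the loader *Cdt1* lay between -0.01 and 0.36 in both strain comparisons. So did the Cdt1 inhibitor *Gmnn*, *Mcm10* and *Cdc45*.

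The polymerases, the clamp and its loader had 15 probes of 8 genes, with no call. In *nm1054* brains the strain difference had a median of 0.14 (-0.15 to 0.31), and in WT brains of 0.11 (-0.10 to 0.45), or 0.05 and -0.02 after centring. *Pcna*, the sliding clamp and a standard marker of S phase, read 0.11, -0.01 and -0.04 in *nm1054* 129, -0.21, 0.02 and 0.04 in WT 129, 0.22, -0.15 and -0.0039 in *nm1054* B6 and -0.54, 0.0039 and 0.05 in WT B6 brains at its single probe. All groups overlapped, and the strain differences were -0.0022 in *nm1054* brains and 0.11 in WT brains. *Rfc5*, a subunit of the clamp loader, had the smallest p of the group in WT brains. Its probe ILMN_2550370 read 0.20, 0.04 and 0.46 in *nm1054* 129, 0.56, 0.18 and 0.14 in WT 129, -0.06, -0.09 and -0.05 in *nm1054* B6 and -0.36, -0.04 and -0.06 in WT B6 brains. The 129 brains lay above the B6 brains in both genotypes, at 0.30 (SE 0.14, limma adjusted p = 0.216) in *nm1054* brains and 0.45 (SE 0.14, limma adjusted p = 0.0539) in WT brains, which missed the threshold. *Rfc4*, of the same loader, read 0.16, 0.23 and 0.08 in *nm1054* 129, 0.0045, -0.08 and -0.25 in WT 129, -0.25, -0.21 and -0.0045 in *nm1054* B6 and -0.38, 0.05 and 0.09 in WT B6 brains at ILMN_2741050. There the *nm1054* 129 brains lay above both WT 129 and *nm1054* B6 brains. *Rpa2*, a subunit of the protein that coats single-stranded DNA, read 0.09, 0.06 and -0.24 in *nm1054* 129, 0.20, 0.12 and -0.06 in WT 129, -0.31, -0.30 and -0.06 in *nm1054* B6 and -0.46, 0.38 and 0.19 in WT B6 brains at ILMN_2597840. Its WT B6 values ran from -0.46 to 0.38, and no groups stood apart. *Pola1* and *Prim1* of the primase complex, the leading-strand polymerase gene *Pole* and *Rfc3* lay inside the range above.

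Nucleotide supply had 15 probes of 4 genes, among them the called *Rrm1* probe. The median strain difference was 0.13 in *nm1054* brains (range -0.41 to 0.41) and 0.03 in WT brains (-0.60 to 0.41), or 0.03 and -0.10 after centring. *Tk1*, thymidine kinase of the salvage route, passed an adjusted p under 0.05 in both strain comparisons at its probe ILMN_2605890, at 0.41 (SE 0.12, limma adjusted p = 0.0379) in *nm1054* brains and 0.41 (SE 0.12, limma adjusted p = 0.0348) in WT brains. At the *Tk1* probe ILMN_2893926 the values were -0.10, 0.19 and -0.08 in *nm1054* 129, 0.06, 0.34 and -0.10 in WT 129, -0.49, -0.27 and 0.12 in *nm1054* B6 and -0.06, 0.14 and 0.26 in WT B6 brains. The strains overlapped there, with a WT difference of -0.02. *Rrm2*, the small subunit of the reductase, was lower in 129 at an adjusted p under 0.05 in *nm1054* brains at ILMN_1239307, at -0.41 (SE 0.12, limma adjusted p = 0.0444), and its other 2 probes differed by -0.0048 and 0.19. The 5 probes of *Tyms*, thymidylate synthase, differed by -0.07 to 0.20 in *nm1054* brains and by 0.03 to 0.34 in WT brains.

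Cyclins and their kinases had 20 probes of 9 genes, with no call. Between strains the median difference was 0.12 in *nm1054* brains (-0.14 to 0.42) and 0.16 in WT brains (-0.11 to 0.46), and 0.02 and 0.03 with the arrays centred. *Cdk1*, the kinase that drives entry into mitosis, had 3 probes. ILMN_2657844 read 0.13, 0.01 and 0.33 in *nm1054* 129, 0.08, 0.06 and 0.27 in WT 129, -0.06, -0.46 and -0.01 in *nm1054* B6 and -0.50, -0.37 and -0.11 in WT B6 brains. Its strains did not overlap in either genotype, and the differences were 0.33 (SE 0.14, limma adjusted p = 0.172) in *nm1054* brains and 0.46 (SE 0.14, limma adjusted p = 0.0488) in WT brains. The probe ILMN_2698252 read 0.0014, 0.13 and -0.17 in *nm1054* 129, 0.15, 0.11 and 0.12 in WT 129, -0.23, -0.14 and -0.0014 in *nm1054* B6 and -0.12, -0.05 and 0.22 in WT B6 brains. The values at ILMN_2961747 were 0.28, 0.16 and -0.09 in *nm1054* 129, 0.27, -0.13 and -0.08 in WT 129, -0.09, -0.03 and 0.24 in *nm1054* B6 and 0.01, -0.01 and 0.07 in WT B6 brains. Strain groups overlapped at both of these, with WT differences of 0.11 and -0.0026. *Cdk4*, the G1 kinase of the D cyclins, read 0.10, 0.23 and 0.06 in *nm1054* 129, 0.02, 0.04 and 0.11 in WT 129, -0.26, -0.40 and -0.23 in *nm1054* B6 and -0.19, -0.02 and -0.21 in WT B6 brains at ILMN_2690976. The strains did not overlap in either genotype, and the difference was 0.42 (SE 0.11, limma adjusted p = 0.0234) in *nm1054* brains and 0.20 in WT brains. *Ccne1*, cyclin E1 of the G1 to S transition, read 0.07, -0.09 and -0.09 in *nm1054* 129, 0.09, 0.13 and 0.16 in WT 129, -0.47, -0.07 and -0.29 in *nm1054* B6 and 0.17, -0.35 and 0.25 in WT B6 brains at its single probe. WT B6 brains were split there, with replicate 2 well below the other 2. *Ccnd2*, cyclin D2, passed an adjusted p under 0.05 at 1 of 4 probes in *nm1054* brains, at 0.41 (SE 0.11, limma adjusted p = 0.0359). Its other 3 probes differed there by -0.14, -0.05 and -0.10, and none of the 4 passed in WT brains. The other members, *Ccna2* and *Ccnb2* of the later phases, *Ccnd3*, *Ccne2* and *Cdk2*, lay between -0.11 and 0.24 in both strain comparisons.

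The mitotic kinases, the spindle checkpoint and mitotic exit were read by 22 probes of 11 genes. In *nm1054* brains the strain difference had a median of 0.26 (-0.48 to 0.76), and in WT brains of 0.31 (-0.55 to 0.67), or 0.17 and 0.18 after centring. Beside *Birc5*, *Aurkb*, the Aurora kinase of the passenger complex, passed an adjusted p under 0.05 in *nm1054* brains, at 0.46 (SE 0.13, limma adjusted p = 0.0407), with 0.39 (SE 0.13, limma adjusted p = 0.073) in WT brains. *Bub1b*, a checkpoint kinase that holds anaphase back, ran the other way at ILMN_2774007, which read -0.10, -0.20 and -0.28 in *nm1054* 129, -0.14, -0.13 and -0.17 in WT 129, 0.12, 0.27 and 0.47 in *nm1054* B6 and 0.10, 0.60 and 0.50 in WT B6 brains. All 129 values were below all B6 values in both genotypes, at -0.48 (SE 0.13, limma adjusted p = 0.0343) in *nm1054* brains and -0.55 (SE 0.13, limma adjusted p = 0.014) in WT brains, just under 1.5-fold. It was called in WT brains after centring, after quantile normalization, with array weights and without WT B6 replicate 1. The second *Bub1b* probe differed by 0.02 in *nm1054* and -0.01 in WT brains. *Bub1*, its partner at the kinetochore, read -0.04, -0.14 and -0.19 in *nm1054* 129, 0.41, 0.05 and 0.03 in WT 129, 0.05, 0.06 and -0.05 in *nm1054* B6 and -0.34, -0.03 and 0.18 in WT B6 brains at ILMN_2582233. The 3 *nm1054* 129 values lay below the 3 WT 129 values, and the strain difference was -0.14 in *nm1054* brains and 0.23 in WT brains. *Ube2c*, an enzyme that tags mitotic cyclins for destruction, read 0.32, 0.0012 and 0.08 in *nm1054* 129, 0.29, -0.0036 and -0.13 in WT 129, -0.0012, -0.22 and -0.30 in *nm1054* B6 and -0.28, 0.24 and 0.23 in WT B6 brains at its single probe. The *nm1054* strains did not overlap, at 0.30 (SE 0.15, limma adjusted p = 0.244), while the WT strains did. *Cdc20*, the activator of the anaphase-promoting complex, differed by 0.22 to 0.46 at its 4 probes in *nm1054* brains and by 0.20 to 0.44 in WT brains. *Nek2*, *Aurka*, *Tpx2* and *Ttk* differed by 0.03 to 0.43, and *Mad2l1* by -0.04 to 0.05.

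Centromere and kinetochore genes had 7 probes of 4 genes, with no call. The median strain difference was 0.14 in *nm1054* brains (range -0.04 to 0.48) and 0.35 in WT brains (0.20 to 0.53), or 0.05 and 0.22 after centring. *Cenpf*, a large kinetochore protein that builds up in G2, read 0.39, 0.06 and 0.24 in *nm1054* 129, 0.26, 0.31 and 0.27 in WT 129, -0.27, -0.17 and -0.33 in *nm1054* B6 and -0.56, -0.06 and -0.13 in WT B6 brains at ILMN_1234999. The strains did not overlap in either genotype, and both comparisons passed an adjusted p under 0.05, at 0.48 (SE 0.13, limma adjusted p = 0.0319) in *nm1054* brains and 0.53 (SE 0.13, limma adjusted p = 0.0166) in WT brains. Its folds were under 1.5. *Ndc80*, which couples the kinetochore to microtubules, read -0.04, -0.01 and 0.01 in *nm1054* 129, 0.10, 0.33 and 0.09 in WT 129, -0.30, 0.01 and 0.37 in *nm1054* B6 and -0.01, -0.35 and -0.21 in WT B6 brains at ILMN_1227733. Its strain difference was -0.04 in *nm1054* brains, where the B6 replicates ran from -0.30 to 0.37, and 0.37 (SE 0.15, limma adjusted p = 0.122) in WT brains, where the strains did not overlap. *Cenpa*, the centromeric histone, differed by 0.11 in *nm1054* and 0.28 in WT brains, and *Cenpe*, a kinetochore motor, by 0.14 and 0.38.

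*Mki67*, the gene of the Ki-67 antigen on mitotic chromosomes, and *Top2a*, the topoisomerase that untangles them, are the usual markers of proliferation and had 3 probes each. Between strains the median difference was 0.25 in *nm1054* brains (-0.09 to 0.54) and 0.33 in WT brains (0.14 to 0.52), and 0.15 and 0.20 with the arrays centred. *Mki67* read 0.27, 0.14 and 0.57 in *nm1054* 129, 0.07, 0.22 and 0.25 in WT 129, -0.26, -0.31 and -0.07 in *nm1054* B6 and -0.30, -0.10 and -0.15 in WT B6 brains at ILMN_2740902. All 6 of the 129 values were above 0 and all 6 of the B6 values below it, with a difference of 0.54 (SE 0.13, limma adjusted p = 0.0113) in *nm1054* and 0.37 (SE 0.13, limma adjusted p = 0.0789) in WT brains, neither past 1.5-fold. The probe ILMN_1245049 read 0.38, 0.13 and 0.01 in *nm1054* 129, 0.20, 0.11 and -0.03 in WT 129, -0.09, -0.25 and -0.12 in *nm1054* B6 and -0.62, -0.01 and 0.03 in WT B6 brains. At ILMN_1222340 the values were 0.29, 0.02 and 0.02 in *nm1054* 129, 0.17, 0.02 and -0.23 in WT 129, -0.13, 0.03 and -0.12 in *nm1054* B6 and -0.37, -0.09 and -0.02 in WT B6 brains. WT strains overlapped at both, and the WT differences were 0.29 and 0.14. *Top2a* read -0.02, 0.08 and 0.07 in *nm1054* 129, 0.29, 0.26 and 0.13 in WT 129, -0.01, -0.25 and 0.01 in *nm1054* B6 and -0.25, -0.11 and -0.12 in WT B6 brains at ILMN_1242235. There the *nm1054* strains overlapped, at 0.12, and the WT strains did not, at 0.39 (SE 0.11, limma adjusted p = 0.0378). The probe ILMN_2830661 gave 0.16, 0.01 and 0.51 in *nm1054* 129, 0.09, -0.01 and 0.31 in WT 129, -0.04, -0.38 and 0.15 in *nm1054* B6 and -0.09, -0.13 and -0.02 in WT B6 brains, with differences of 0.32 in *nm1054* brains and 0.21 in WT brains. The values at ILMN_1255436 were 0.01, 0.01 and -0.09 in *nm1054* 129, 0.40, 0.13 and 0.31 in WT 129, -0.01, -0.03 and 0.22 in *nm1054* B6 and -0.52, -0.14 and -0.07 in WT B6 brains. The strain difference was -0.09 in *nm1054* brains and 0.52 (SE 0.13, limma adjusted p = 0.0174) in WT brains.

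Among the transcription factors of the cycle, *E2f1*, *Foxm1* and *Mybl2*, 6 probes were measured and none was called. In *nm1054* brains the strain difference had a median of 0.13 (-0.07 to 0.53), and in WT brains of 0.18 (-0.12 to 0.45), or 0.04 and 0.05 after centring. *Foxm1*, which switches on mitotic genes in G2, read 0.07, 0.31 and 0.28 in *nm1054* 129, -0.04, 0.27 and 0.02 in WT 129, -0.50, -0.42 and -0.02 in *nm1054* B6 and -0.20, 0.11 and -0.13 in WT B6 brains at ILMN_2731974. The *nm1054* strains did not overlap, at 0.53 (SE 0.14, limma adjusted p = 0.0246), and the WT strains did, at 0.15. *Mybl2*, which encodes B-Myb, read 0.23, -0.03 and 0.11 in *nm1054* 129, 0.31, 0.32 and 0.23 in WT 129, -0.07, -0.18 and -0.08 in *nm1054* B6 and -0.22, 0.03 and -0.31 in WT B6 brains at ILMN_1249829. Its strains did not overlap in either genotype, with a difference of 0.21 in *nm1054* brains and 0.45 (SE 0.12, limma adjusted p = 0.0214) in WT brains. At ILMN_2826881 the values of *Mybl2* were 0.04, -0.04 and -0.07 in *nm1054* 129, 0.16, 0.28 and 0.17 in WT 129, -0.19, -0.26 and 0.22 in *nm1054* B6 and -0.08, 0.14 and -0.05 in WT B6 brains. WT 129 brains lay above WT B6 brains there, at 0.20, and a further probe differed by -0.12. *E2f1*, the activator of S phase genes, had 1 probe, at 0.04 in *nm1054* brains and -0.10 in WT brains.

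No member was called between *nm1054* and WT brains on either background. On 129, limma called 0 of 115 member probes, against 0.0199% of all probes, and 2 passed an unadjusted p under 0.05 (2.65% of all probes). On B6, limma called 0 member probes (0.0177% of all probes), and 6 passed an unadjusted p under 0.05 (6.12%). The methods' t-test called 0 in both. The median difference, *nm1054* minus WT, was -0.043 over the members and -0.047 over all probes on 129, and -0.020 and -0.021 on B6. On 129 the differences ran from -0.30 at *Top2a* ILMN_1255436 to 0.26 at *Rfc4* ILMN_2741050, and 98 of the 115 lay within 0.2 of 0. On B6 they ran from -0.36 at a probe of *Gins2* to 0.38 at *Mcm7* ILMN_2673889, and 93 lay within 0.2. The SE of a member's difference was between 0.11 and 0.24 (median 0.13), so changes of that size could not be separated from the spread between brains. The larger ones, up to the 0.38 at *Mcm7*, were all under 1.5-fold, so the rule could not call them at any precision. The lack of calls therefore does not exclude changes above the SE.

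**Figure D4:**
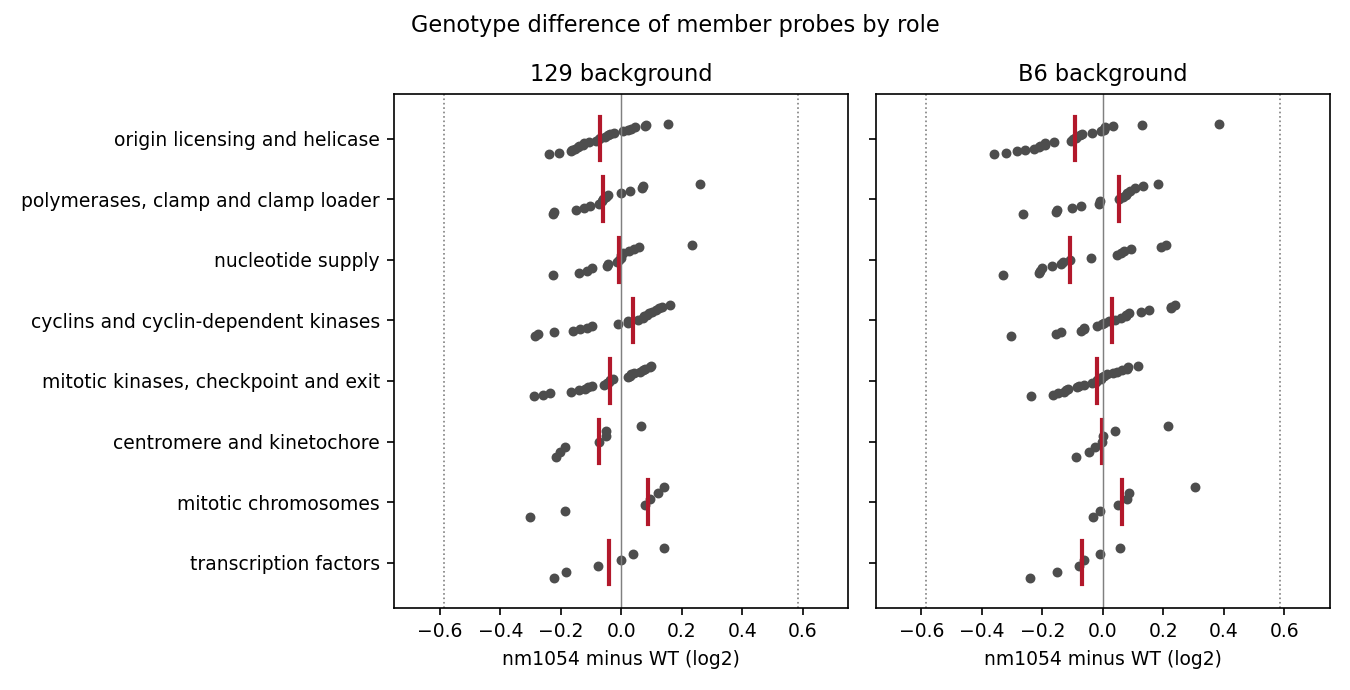
The difference *nm1054* minus WT (log2) of each member probe on the 129 (left) and the B6 background (right), by role, with the median of each role in red and dotted lines at a fold of 1.5. All 115 points lie inside the dotted lines on both backgrounds, and the role medians lie between -0.11 and 0.09.

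Origin licensing and helicase probes had a median genotype difference of -0.07 on 129 and -0.09 on B6, and polymerase and clamp probes -0.06 and 0.05. Nucleotide supply had a median of -0.01 on 129 and -0.11 on B6, and cyclins and their kinases 0.04 and 0.03. For mitotic kinases and checkpoint the median was -0.04 on 129 and -0.02 on B6, and for centromere and kinetochore -0.07 and -0.0022. *Mki67* and *Top2a* came to 0.09 on 129 and 0.06 on B6, and the transcription factors to -0.04 and -0.07. On 129 the *nm1054* and WT values did not overlap at 17 member probes. At 3 of these, of *Rrm1*, *Mcm3* and *Rfc4*, the *nm1054* values lay above (3.28% of all probes), and at 14 they lay below (7.77%), at -0.30 to -0.14. The 14 were of *Cenpa*, *Ndc80*, *Ccne1*, *Top2a* (2 probes), *Bub1*, *Mad2l1*, *Nek2*, *Ttk*, *Rrm2*, *Tk1*, *Cdc6* and *Mybl2* (2 probes). With the arrays centred the counts were 6 above (4.85% of all probes) and 9 below (5.8%). The smallest p among the 14 were those of *Top2a* ILMN_1255436, at -0.30 (SE 0.13, limma adjusted p = 1), and *Bub1* ILMN_2582233, at -0.29 (SE 0.14, limma adjusted p = 1). On B6 the values did not overlap at 8 member probes, with *nm1054* above at 2 (3.3% of all probes) and below at 6 (5.92%). The 2 were *Mcm7* ILMN_2673889, at 0.38 (SE 0.13, limma adjusted p = 0.755), and *Top2a* ILMN_1255436, at 0.30 (SE 0.13, limma adjusted p = 0.786). With the arrays centred the counts were 5 above (4.42%) and 5 below (6.01%). The 6 were 1 probe each of *Cdk4*, *Rrm1*, *Cdc6*, *Mcm4*, *Orc1* and *Pola1*, at -0.28 to -0.15. WT B6 replicate 1 weighed on the B6 comparison. Without it the member median was -0.12 and the all-probe median -0.079, and limma again called 0 members.

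The interaction asks whether the genotype difference itself differed between 129 and B6. limma called 0 of 115 member probes, against 0.00221% of all probes, and 2 passed an unadjusted p under 0.05 (4.09% of all probes). They were *Top2a* ILMN_1255436, at -0.61 (SE 0.18, limma adjusted p = 1), and *Mcm7* ILMN_2673889, at -0.43 (SE 0.18, limma adjusted p = 1). The single probe called over the whole array belongs to *Mcm6*, the subunit of the MCM2-7 ring that was not among the members. Its probe ILMN_1217331 read 0.40, -0.45 and 0.01 in *nm1054* 129, -3.17, -3.03 and -3.16 in WT 129, 0.20, -0.01 and 0.12 in *nm1054* B6 and -0.43, 0.40 and 0.23 in WT B6 brains. The 3 WT 129 brains alone were low, and the lowest of the other 9 values was -0.45. The other 3 probes of *Mcm6* gave interactions of 0.74, 0.58 and -0.17, none of them called. At ILMN_1233857 and ILMN_2803399 the 3 WT 129 brains were again the lowest of all, and *nm1054* minus WT on 129 was 0.53 at each. At ILMN_1236125 that difference was -0.29. The cause of the *Mcm6* values was not tested. Neither the position of *Mcm6* relative to the deletion nor sequence variants under its probes were examined. The called interaction is therefore not read as an effect of the deletion. The other 5 subunits of the ring are members, and their genotype differences on 129 were between -0.16 and 0.16.

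The remaining genes of the cycle were counted over 3 further lists of 166 measured genes with 308 probes, written with earlier results of these data known. In *nm1054* brains 14 probes were called higher and 7 lower in 129 (6.82% of the 308, against 3.27% of all probes), and in WT brains 8 and 7 (4.87%, against 3.33%). Between genotypes limma called the *Mcm6* probe alone on 129, where 8 had an unadjusted p under 0.05, and 0 on B6, where 14 had. Over the 138 probes of other mitosis genes the median strain difference was 0.22 in *nm1054* and 0.22 in WT brains. It was 0.11 and 0.09 for other replication genes (80 probes) and 0.16 and 0.175 for other cell cycle regulators (90 probes). After centring these came to 0.13 and 0.09, 0.01 and -0.04, and 0.06 and 0.05. Some single probes had strain differences beyond those of the members, and those called lower ran against these deposited medians. *Ccng2*, a cyclin linked to cell cycle arrest, differed by -2.96 in *nm1054* brains and -3.14 in WT brains. *Plk1*, Polo-like kinase of mitotic entry, differed by -1.71 in *nm1054* and -1.84 in WT brains. *Kif23* of the cytokinetic midzone differed by -1.48 and -1.44, and *Hjurp*, which loads Cenpa, by -1.24 and -1.47. The CDK inhibitor gene *Cdkn2b* differed by -0.96 and -0.82, and *E2f6*, a repressor E2F, by -0.67 and -0.74. All of these were called lower in 129 in both genotypes. Each value is that of the called probe alone, and any other probes of these genes are not given here. Sequence variants under these probes were not checked. *Dbf4*, the activator of the Cdc7 kinase, was called lower in *nm1054* brains, at -0.69, with -0.55 in WT brains, and the *Mcm6* probe ILMN_1217331 in WT brains, at -3.19, with -0.12 in *nm1054* brains. *Ccnd1*, cyclin D1 of G1, was higher in 129 at 3 probes, by 0.80, 0.64 and 1.02 in *nm1054* and by 0.78, 0.51 and 1.35 in WT brains, with ILMN_2601471 short of the call in WT brains. *E2f2*, an activator E2F, was higher by 0.65 in *nm1054* and 0.72 in WT brains at ILMN_2836137, and a second probe was called in *nm1054* brains, at 0.60. *Nusap1*, a spindle protein, was higher by 0.65 and 0.66 at ILMN_2653765, with a second probe called in WT brains, at 0.67. *Gins4* was higher by 0.66 and 0.62, and the polymerase delta subunit *Pold2* by 0.66 and 0.59. *Oip5*, of the complex that prepares centromeres for Cenpa, was called at 1 probe in *nm1054* brains, at 0.59, and at another in WT brains, at 0.60. Called higher in *nm1054* brains and short of the call in WT brains were *Cdkn2c*, a CDK inhibitor gene, at 0.61, *Cdca3* at 0.59, *Cenpm* of the centromere at 0.63, *Ckap2* of the spindle at 0.64 and *Chtf18* of a clamp loader at 0.61, with no call of the interaction at these. With the arrays centred, 2 of the 14 probes called higher in *nm1054* brains stayed over 1.5-fold, both of *Ccnd1*, and 3 of the 8 in WT brains, of *Ccnd1* (2 probes) and *E2f2*, while the 7 called lower in each genotype all did.

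Marker lists of 10 cell types, with 124 probes, were set beside the members. Between genotypes 0 of their probes were called by limma on either background (at an unadjusted p under 0.05 there were 13 for 129, 10.5% against 2.65% of all probes, and 11 for B6, 8.87% against 6.12%). In the strain comparisons 4 were called higher and 6 lower in 129 in *nm1054* brains (8.06%, against 3.27% of all probes), and 1 higher and 5 lower in WT brains (4.84%, against 3.33%). The lists of neural progenitors and radial glia and of intermediate progenitors held no call, and that of cerebellar granule cell precursors held 1, *Zic2* ILMN_2470518, lower in 129 at -0.62 (SE 0.14, limma adjusted p = 0.00648) in *nm1054* brains, with 0.30 in WT brains. The median strain difference of neural progenitor and radial glia markers (10 genes) was 0.06 in *nm1054* and 0.08 in WT brains, that of intermediate progenitors 0.06 and -0.05, that of cerebellar granule cell precursors 0.02 and 0.19, and that of postmitotic neurons 0.18 and 0.23. The all-probe medians were 0.12 and 0.15. Over all 10 lists the medians ran from -0.20 (choroid plexus) to 0.18 (endothelium and pericytes) in *nm1054* brains. In WT brains they ran from -0.11 (choroid plexus) to 0.25 (meninges). With the arrays centred, the neural progenitor list came to -0.04 in *nm1054* and -0.05 in WT brains. Intermediate progenitors came to -0.04 and -0.18, granule cell precursors to -0.08 and 0.06, and postmitotic neurons to 0.09 and 0.10. Per array the progenitor medians ran from -0.066 to 0.070 in *nm1054* 129, -0.0080 to 0.024 in WT 129, -0.12 to -0.034 in *nm1054* B6 and -0.083 to 0.037 in WT B6 brains. The part of cell composition in the member values was not tested.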

How the data were processed

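Whole P1 brains were measured on 12 Illumina MouseWG-6 arrays, 4 groups of 3. The authors computed intensities with GenomeStudio and normalized them in GeneSpring GX. The deposited values are log2 intensities relative to each probe's median over the arrays. Software versions, the kind of normalization and the beadchip of each array are not given in the sources used here, and with no signal level no filter on dim probes could be applied. The number of arrays limits the precision. The SE and the limma p-values rest on a spread pooled over the 4 groups, with 8 degrees of freedom. That spread is moderated towards the spread of all probes, with 10.8 prior degrees of freedom. They are thus not based on the brains' own spread at a probe alone.

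All 45281 probes were fitted at once with limma 3.58.1 in R 4.3.3, with a mean per group, and p-values were adjusted by Benjamini-Hochberg over all probes. The call took an adjusted p under 0.05 together with a fold over 1.5, and the interaction was called at an adjusted p under 0.05, all two-sided. Lists were described by counts and medians beside those of all probes, with no test over a list. Promoters came from RefSeq (GRCm38.p6), and gene symbols from the annotation of the platform. The fit was also run on simulated data with independent noise at each probe and no shift between arrays. That run cannot show how the fit behaves under the array shifts seen here.

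The members and lists were chosen with earlier results of these data known. Values in every array are given for called member probes, for up to 3 probes a role with the smallest p in a genotype or strain comparison, and for *Mki67*, *Top2a*, *Pcna*, *Mcm2* and *Cdk1*. Genes of 3 further cell cycle lists are named where a probe was called, and *Mcm6* by rule. Alternatives were the methods' t-test, the groups compared alone, quantile normalization, a replicate block, array weights, centring of arrays on their median, the more variable probes alone, no fold threshold, each gene once, and each array left out in turn. The replicate numbers were not taken as pairs in the main fit. Same-numbered brains deviated from their group means with correlations between -0.323 and 0.194, over 0.1 in 2 of 18 pairs. For brains of unlike number the correlations were between -0.32 and 0.408, over 0.1 in 10 of 36 pairs. Whether same-numbered brains shared a litter or a day was not tested.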

Additional observations from a re-analysis of the deposited data

Results flagged for a closer look

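*Top2a* ILMN_1255436 was flagged by rule because its *nm1054* and WT values did not overlap on either background and lay in opposite directions. Of all probes, 7.77% had *nm1054* values entirely below WT on 129, and 3.3% had them entirely above on B6. The share of all probes that meets the whole rule was not counted. The difference, *nm1054* minus WT, was -0.30 on 129 and 0.30 on B6, and the difference between these was -0.61 (SE 0.18, unadjusted p = 0.00381, limma adjusted p = 1 over all probes), so it fails the correction. Without WT B6 replicate 1 the B6 difference was 0.17. The other 2 probes of the gene gave -0.26 and 0.11 for the same interaction.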

How the results depend on the processing

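The counts of called members in the genotype comparisons and the interaction were 0 under each alternative run, and the numbers of strain calls depended on the setting. In *nm1054* brains the 2 calls became 0 with the methods' t-test, 1 with quantile normalization, 1 with centred arrays, 12 with no fold threshold and 2 to 10 with an array left out. The 10 were without *nm1054* B6 replicate 3, and added *Aurkb*, *Cdc20*, *Foxm1*, *Gins1* and *Mki67* to *Birc5*. In WT brains the 2 calls became 0 with the methods' t-test, 4 with array weights, 12 with no fold threshold and 1 to 6 as each array was left out (1 without WT 129 replicate 3, 6 without WT B6 replicate 3). Centring and quantile normalization replaced the WT call of *Birc5* by *Bub1b*, so that both WT calls were lower in 129. The replicate block left both strain counts at 2, with the same probes, and called 0 members in the other comparisons, while over all probes it took the calls in WT brains to 1502 of 45281. The cause of these changes was not tested.

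The median strain difference of the members was 0.073 in *nm1054* and 0.072 in WT brains after quantile normalization, and 0.080 and 0.070 after centring. With each array left out it ran from 0.13 to 0.20 in *nm1054* and from 0.13 to 0.24 in WT brains. The median genotype difference ran from -0.062 to -0.0051 on 129 and from -0.12 to 0.0059 on B6, with the lowest value without WT B6 replicate 1. No called value changed sign. Differences under the SE of 0.11 to 0.24 could not be resolved with 3 brains a group. Larger ones under 1.5-fold could not be called by the rule at any precision, such as the genotype difference of 0.38 on B6 at *Mcm7* ILMN_2673889.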
